A study of Rattus norvegicus with 8 samples.

Results

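The muscle miRNAs miR-1, miR-133a, miR-133b and miR-206 were read on arrays of rat cardiomyocyte RNA as the miRNAs named rno-miR-1, rno-miR-133a, rno-miR-133b and rno-miR-206 on the array (rno marks the rat), 4 of 677 miRNAs and 8 of 1644 probes. MicroRNAs (miRNAs) are short RNAs that pair with messenger RNAs through a seed, bases 2 to 8 from the 5′ end, and repress them. The 8 arrays held total RNA, labelled with Cy3, of cardiomyocytes isolated from rats of either sex at postnatal day 0 (P0, 4 arrays) or postnatal day 10 (P10, 4 arrays), with no other treatment given in the labels. The series' own title and design text call the younger age day 1, while every sample label calls it day 0, and P0 is used here. The labels state that P10 cells proliferated less, and they do not say that the replicates are separate animals or cultures. The p-values thus hold only for the spread among these arrays, which may be technical.

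These 4 miRNAs come from gene pairs that make a miR-1 type and a miR-133 type RNA from the same stretch of genome. miR-1 and miR-133a are the abundant miRNAs of heart and skeletal muscle, and miR-1 is known for repressing genes of growth and cell division while miR-133a is known for repressing smooth muscle and growth genes in cardiomyocytes. miR-206 and miR-133b are known as the pair of skeletal muscle, where miR-206 is induced during myoblast differentiation, and the adult heart is known to hold little miR-206. The age comparison is therefore a comparison within cardiomyocyte preparations of the cardiac pair and the pair known from skeletal muscle.

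The sequences are shown because the members differ by so few bases that each has a near-identical partner. They are the mature RNAs of RefSeq on the GRCr8 build, 5′ to 3′, with the seed in capitals, and all 4 members matched under their newer -3p names.
miR-1: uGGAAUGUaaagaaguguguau
miR-206: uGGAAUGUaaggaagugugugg
miR-133a: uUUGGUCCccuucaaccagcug
miR-133b: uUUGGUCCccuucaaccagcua
miR-1 and miR-206 share the seed GGAAUGU, and miR-133a and miR-133b share the seed UUGGUCC, so within a seed pair the sequence that selects targets is the same. Counted from the 5′ end, miR-206 differs from miR-1 by A11G, A21G and U22G and is identical at the other 19 of 22 bases. miR-133b differs from miR-133a by G22A, its last base, and is identical at the other 21.

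In GRCr8 the hairpins of miR-133a (Mir133a1, chromosome 18, 2157872 to 2157958) and miR-1 (Mir1, 2160327 to 2160413) lie 2368 bp apart within the span of Mib1, a protein-coding gene for an E3 ubiquitin ligase of Notch signalling. Those of miR-206 (Mir206, chromosome 9, 30590697 to 30590780) and miR-133b (Mir133b, 30594582 to 30594665) lie 3801 bp apart within the span of the non-coding gene LOC120094648. The gene table used here gives no exons, so whether the hairpins are exonic or intronic is not given. It holds no further miR-133a gene, so another source of miR-133a was not tested. A further miR-1 gene, Mir1b on chromosome 3 (187864685 to 187864769), makes a mature RNA that differs from miR-1 by G17A. No probe carries the name miR-1b, so what the miR-1 probes read of it was not tested.

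Each member had 2 probes, printed 10 times on every array, and each probe is the exact complement of the 3′ part of its own miRNA. The longer probe of each is shown here 5′ to 3′ as the scanner files give it, with capitals at the bases that do not pair with the partner miRNA of the same seed.
miR-1 probe: ATacacacttcTttacattcc
miR-206 probe: CCacacacttcCttac
miR-133a probe: Cagctggttgaagggg
miR-133b probe: Tagctggttgaaggggacc
The probes of miR-1 are 20 and 21 bases long, those of miR-206 and miR-133a 15 and 16, and those of miR-133b 18 and 19. Every miR-133 probe differs from the complement of its partner at 1 base, at the probe's 5′ end, and every miR-1 or miR-206 probe at 3 bases. Cross-hybridisation between partners was not tested. On rn4, the build of the scanner files, those files place the longer probes, with spans 1 base shorter than the probes, on chromosome 18 for miR-1 (2191726 to 2191745) and miR-133a (2189274 to 2189288), and on chromosome 9 for miR-206 (19402042 to 19402056) and miR-133b (19405921 to 19405938).

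The signal is the spot's background-subtracted brightness in intensity units, averaged over the spots without an outlier mark. Levels are log2 of that signal divided by the array's 75th percentile over 111 probes detected on all arrays, with a floor at log2 -5.89. Detected means that a share of 0.5 or more of the probe's spots passed the scanner's flag for standing well above background. Brightness depends on the probe, so a level is set only against the same probe on other arrays. In miR-133b, for example, the 18-base probe lay 2.86 to 2.96 below the 19-base probe (log2) on the same RNA.

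Some arrays stood apart. P0 replicate 1 was dim, with a scaling signal of 116 units against 580 to 1326 on the others, and it detected nothing below log2 -2.84. P10 replicates 1 and 2 were near-identical to each other (r = 0.998 over 158 miRNAs), as were 3 and 4 (r = 0.997), while r between those pairs was 0.890 to 0.898. Within P0, r was 0.994 between replicates 2 and 4 and 0.993 between 3 and 4, with SDs of the log2 differences of 0.40 and 0.27 over 111 probes. Between P10 replicates 1 and 2 that SD was still 0.097, against a median error from the spots of 0.0226. That comparison does not tell separate samples from repeated hybridisations of the same RNA, at either age. The labels list 4 samples per age, and all 4 were counted as such, an assumption that was not tested. All fits were also made with each near-identical P10 pair averaged and without each P10 pair, while P0 arrays were not averaged.

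The cardiac pair did not pass the test between the ages. miR-1 gave signals of 504, 8883, 5275 and 7566 units on P0 replicates 1 to 4 and 2579, 2163, 9229 and 8969 units on P10 replicates 1 to 4. After scaling, its levels were 2.13, 2.74, 2.71 and 2.71 at P0 and 1.98, 1.90, 2.85 and 2.82 at P10. P10 replicates 1 and 2 lay below every P0 array and P10 replicates 3 and 4 above every one, so the ages overlapped. The log2 difference, P10 minus P0, was -0.18 ± 0.30 (SE; 95% interval -0.87 to 0.51; limma and Benjamini-Hochberg adjusted p = 0.697 over 158 miRNAs; n = 4 per age). That interval holds differences of either sign, so it does not show that the ages were alike. Without P10 replicates 1 and 2 the difference turned to 0.27, without P10 replicates 3 and 4 it was -0.65 (limma adjusted p = 0.0570), and without the dim P0 replicate 1 it was -0.51. In RNA of whole preparations, fewer cardiomyocytes and less of a miRNA per cardiomyocyte cannot be told apart.

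miR-133a, whose Mir133a1 hairpin lies in the same stretch of genome as that of miR-1, followed the same arrays. Its signals were 39.7, 620.1, 343 and 519 units on P0 replicates 1 to 4 and 126, 103, 580.0 and 619.8 units on P10 replicates 1 to 4. The scaled levels were -1.54, -1.10, -1.23 and -1.16 at P0 and -2.37, -2.49, -1.14 and -1.03 at P10. Again P10 replicates 1 and 2 were the lowest of all arrays, while P10 replicate 4 was the highest. The log2 difference was -0.50 ± 0.38 (SE; 95% interval -1.36 to 0.36; limma and Benjamini-Hochberg adjusted p = 0.390; n = 4 per age), or 0.17 without P10 replicates 1 and 2 and -1.19 without P10 replicates 3 and 4, where it passed (adjusted p = 0.00229, limma). That last fit called 50 of 167 tested miRNAs higher and 26 lower. Without P0 replicate 1 the miR-133a difference was -0.78. Over the alternatives other than the fit without P10 replicates 3 and 4, the adjusted p of miR-133a stayed above the threshold of 0.05.

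miR-133b, the partner known from skeletal muscle, also spread more within P10 than between the ages. It gave 796, 12763, 6755 and 10408 units on P0 replicates 1 to 4 and 3786, 3040, 15310 and 16374 units on P10 replicates 1 to 4. Its levels were 2.78, 3.27, 3.07 and 3.17 at P0 and 2.54, 2.39, 3.58 and 3.69 at P10, with the 4 P0 levels all inside the P10 range. The log2 difference was -0.02 ± 0.34 (SE; 95% interval -0.80 to 0.76; limma and Benjamini-Hochberg adjusted p = 0.966; n = 4 per age). It was 0.57 without P10 replicates 1 and 2 and -0.62 without P10 replicates 3 and 4, where it passed (adjusted p = 0.0256, limma). That last fit called 50 of 167 tested miRNAs higher and 26 lower. Without P0 replicate 1 the miR-133b difference was -0.30.

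miR-206, the RNA known from differentiating skeletal muscle, lay near the detection limit and was higher on average at P10. Its 16-base probe read 4.86, 0.0535, 18.9 and 10.7 units on P0 replicates 1 to 4 and 57.0, 35.1, 48.9 and 32.4 units on P10 replicates 1 to 4. It was detected on P0 replicate 3 alone at P0 and on all 4 P10 arrays. The unscaled signals of the ages did not overlap, but the arrays differed in brightness. How often other miRNAs lacked overlap in unscaled signal was not computed. Scaled levels were -4.57, -5.89, -5.42 and -5.89 at P0, with replicates 2 and 4 at the floor and replicate 1 below what that dim array could detect, and -3.52, -4.04, -4.71 and -5.29 at P10. On this scale the ages overlapped through P0 replicate 1. The log2 difference was 1.05 ± 0.45 (SE, n = 4 per age; 95% interval 0.03 to 2.07), a 2.07-fold higher mean at P10 whose size the floor sets in part. It did not pass the threshold (adjusted p = 0.158, limma with Benjamini-Hochberg).

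The call for miR-206 depended on arrays and on the processing. Without P0 replicate 1 and with the scaling redone, the difference was 1.23 ± 0.31 and passed (adjusted p = 0.0199, limma). That fit called 25 of 168 tested miRNAs higher and 46 lower. miR-206 passed as well with no scaling between arrays (1.47, adjusted p = 0.0474, limma), with both probes' detected signal summed (2.09, adjusted p = 0.0255, limma) and without P10 replicates 3 and 4 (1.57, adjusted p = 0.0281, limma). Those fits called 11, 16 and 50 miRNAs higher, in that order, of 158, 158 and 167 tested. With each near-identical P10 pair averaged miR-206 did not pass (1.05 ± 0.53, adjusted p = 0.362, limma). With a doubled floor it was 0.52, with no floor 3.45 and without P10 replicates 1 and 2 0.56, and in the authors' deposited log2 table, which sets undetected values far down, the fit gave 6.07. The difference was positive in all 24 alternatives that tested it, and the adjusted p over them ran from 0.0199 to 0.604. miR-206 met the detection filter through P10 alone, the age where it was higher. The shared sign and the gained calls are therefore not separate support for a rise.

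**Figure D1:**
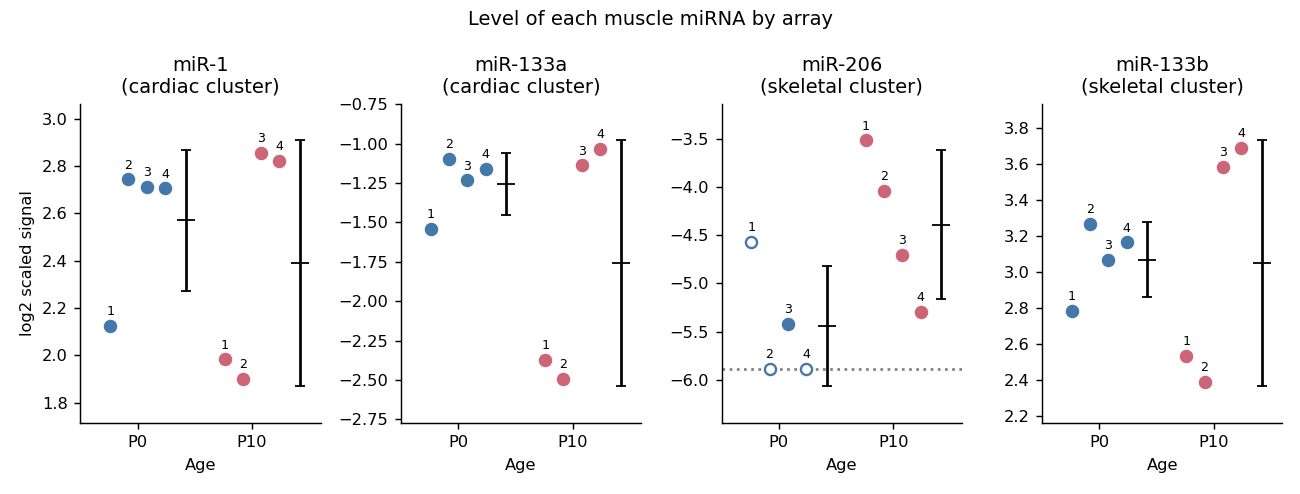
Level of each muscle miRNA (log2 scaled signal, y axis, a separate scale in each panel) on each array by age, with the replicate number above each point, open points where the probe was not detected, and the mean and SD of the 4 arrays beside each age. In miR-1, miR-133a and miR-133b, P10 replicates 1 and 2 are the lowest arrays, while in miR-206 they are the highest; the dotted line is the floor at -5.89.

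Set against the background, 0 of the 4 members passed the test at an adjusted p under 0.05, while 8.86% of the 158 tested miRNAs did (limma, 4.43% higher and 4.43% lower at P10). Of the members, miR-206 had an unadjusted p under 0.05 in the same limma fit (0.0441), as did 44 of all 158. The ages overlapped in 4 of 4 members, while 25.9% of tested miRNAs had no overlap. The median difference of the members was -0.10 and that of all tested miRNAs 0.03. With each near-identical P10 pair averaged, which leaves fewer arrays, 0 of the 158 passed (limma, 26 at an unadjusted p under 0.05). The counts of calls moved with other choices too. They were 3 higher and 2 lower without P0 replicate 2, 0 and 0 with scaling over all probes, and 25 and 46 of 168 without P0 replicate 1. What the counts of calls rest on was not tested.

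The second probe of each member gave the same sign. The shorter probe differed between the ages by -0.19 for miR-1, -0.38 for miR-133a, -0.04 for miR-133b and 1.02 for miR-206 (log2), beside -0.18, -0.50, -0.02 and 1.05 for the longer probes. The shorter miR-133a probe was not detected on P0 replicate 1, at 5.56 units, and that of miR-206 was detected on the same 5 arrays as the longer one. Between the spots of a detected probe the coefficient of variation was 0.611% to 4.40% for miR-1 and miR-133b, and at most 13.4% for miR-133a and 11.9% for miR-206.

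Expressed as a share of all detected miRNA brightness, the members took up much of the array. The share of a member is the sum of its detected probes over that of all detected miRNA probes, needs no scaling between arrays, and counts brightness and not molecules. The 4 members together took 14.5%, 18.03%, 16.9% and 17.3% on P0 replicates 1 to 4 and 7.40%, 7.01%, 22.7% and 23.5% on P10 replicates 1 to 4. The P0 arrays lay between the P10 arrays, and the means, 16.7% ± 1.51 (SD, n = 4) for P0 and 15.2% ± 9.18 for P10, differed by less than the spread.

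Most of that brightness came from miR-133b and miR-1, which does not rank the members by amount, since brightness depends on the probe. miR-133b took 8.57% to 10.2% at P0, and 4.19%, 3.93%, 13.6% and 14.5% on P10 replicates 1 to 4. miR-1 took 5.59% to 7.35% at P0 and 2.96%, 2.86%, 8.47% and 8.27% at P10. miR-133a took 0.379% to 0.529% at P0 and 0.142% to 0.601% at P10, and in all 3 of these the P10 arrays fell on either side of P0.

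The share of miR-206 was the exception, with no overlap between the ages. It was 0.0387% on P0 replicate 3 and 0 on the 3 P0 arrays where the probes were not detected, against 0.107%, 0.0764%, 0.0716% and 0.0456% on P10 replicates 1 to 4. With undetected probes counted at their measured signal, the P0 arrays ran up to 0.0756% and the ages overlapped. How often the shares of miRNAs other than the members lacked overlap was not computed. Summed by pair, miR-1 with miR-133a took a mean of 7.34% ± 0.91 in P0 cells and 6.002% ± 3.41 in P10 cells (SD, n = 4). The other pair, miR-206 with miR-133b, took 9.37% ± 0.67 and 9.15% ± 5.78. Shares are given as a description, with no test, and do not rank the members or the pairs by amount.

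**Figure D2:**
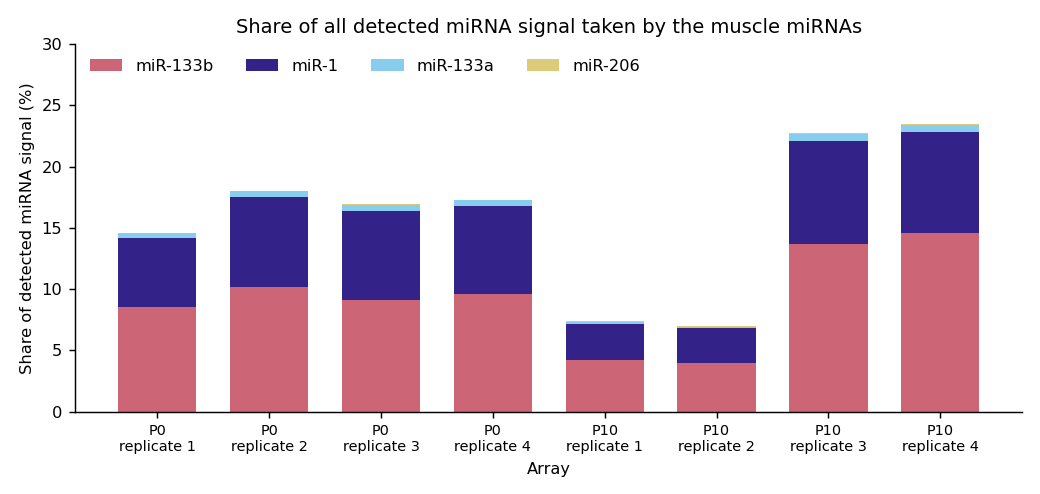
Share of all detected miRNA signal (percent, y axis from 0) taken by each muscle miRNA on each of the 8 arrays, as stacked bars. The bars are 14.5% to 18.03% high at P0, 7.01% and 7.40% on P10 replicates 2 and 1, and 22.7% and 23.5% on P10 replicates 3 and 4; miR-206 is too small to see.

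Whether the pair known from skeletal muscle moved apart from the cardiac pair was asked with the log2 ratio of 2 members on the same array. The ratio cancels the scaling, except on P0 replicates 2 and 4 in the pairs with miR-206, which lay at the floor there. All 6 pairs of members were compared with exact two-sided permutation tests, where 4 against 4 arrays allow no p below 0.0286. None passed after Benjamini-Hochberg adjustment over the 6 pairs.

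Among the 6 pairs, only the ratio of miR-133b to miR-133a had no overlap between the ages. How often ratios of other tested miRNAs lack overlap was not computed, so the separation is not shown to be particular to this pair. Of single tested miRNAs, 25.9% had no overlap. The ratio of miR-133b to miR-133a was 4.32, 4.36, 4.30 and 4.33 (log2 of the 19-base over the 16-base probe) on P0 replicates 1 to 4 and 4.91, 4.88, 4.72 and 4.72 on P10 replicates 1 to 4. All P10 arrays lay above all P0 arrays, near-identical pairs and dim array included, although miR-133b signal ranged from 796 to 12763 units within P0. The means were 4.33 ± 0.03 (SD, n = 4) and 4.81 ± 0.10, a difference of 0.48, with the smallest exact permutation p this design allows, 0.0286, and an adjusted p of 0.171 over the 6 pairs. With the near-identical P10 arrays averaged, 2 against 4 samples gave an exact permutation p of 0.133 at the same difference.

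Other probes gave the same direction. With the 18-base and 16-base probes the ratio was 1.37 to 1.501 at P0 and 1.83 to 1.96 at P10, a difference of 0.46 without overlap (exact permutation p = 0.0286). With the 15-base miR-133a probe, which P0 replicate 1 did not detect, the ages overlapped and the difference was 0.36 against the 19-base probe and 0.34 against the 18-base probe (exact permutation p = 0.171 and 0.114), or 0.53 and 0.49 without that array. Those probe combinations were chosen after seeing the data. Under the alternatives for the ratio the difference ran from 0.34 to 0.51, with the lowest value among the planned ones after normexp background correction (0.34, exact permutation p = 0.429). What part of the miR-133b signal comes from miR-133a RNA, which pairs with all but 1 base of the miR-133b probe, was not tested.

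The ratio of miR-206 to miR-1, the other pair of equal seed, was less even. It was -6.70, -8.63, -8.13 and -8.60 on P0 replicates 1 to 4 and -5.50, -5.94, -7.56 and -8.11 on P10 replicates 1 to 4. P10 replicates 1 and 2 were above every P0 array, while replicates 3 and 4 lay within the P0 range, whose highest value is the dim array's undetected miR-206. The difference was 1.23 (exact permutation p = 0.171, adjusted p = 0.200), and it was 1.74 without P0 replicate 1. Its size is set in part by the floor, where miR-206 lay on P0 replicates 2 and 4. With no floor the difference was 3.63, and in the authors' deposited log2 table it was 6.34.

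The 4 remaining pairs also overlapped between the ages. Within the cardiac gene pair, miR-133a over miR-1 was -3.83 ± 0.12 (SD, n = 4) at P0 and -4.15 ± 0.27 at P10, a difference of -0.32 (exact permutation p = 0.0857, adjusted p = 0.200). Within the other gene pair, miR-206 over miR-133b differed by 1.07 (exact permutation p = 0.200, adjusted p = 0.200). Across the gene pairs, miR-133b over miR-1 differed by 0.16 and miR-206 over miR-133a by 1.55, with exact permutation p of 0.171 and 0.200 (adjusted p = 0.200 for both). These p-values do not show that the ratios were alike, and the floor sets in part the size of the differences that involve miR-206.

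**Figure D3:**
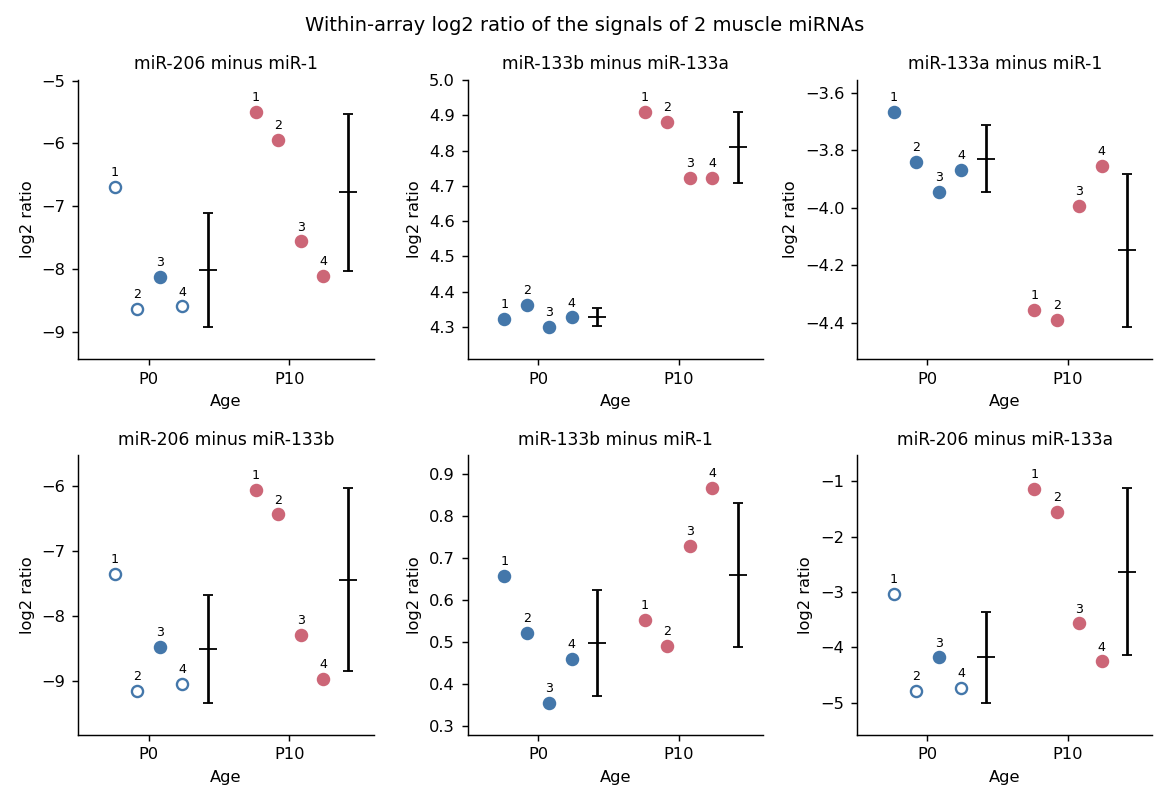
Within-array log2 ratio of 2 muscle miRNAs (y axis, a separate scale in each panel) on each array by age, with replicate numbers, open points where miR-206 was not detected, and the mean and SD of the 4 arrays beside each age. The ratio of miR-133b to miR-133a lies at 4.30 to 4.36 on the P0 arrays and 4.72 to 4.91 on the P10 arrays, while the other 5 ratios overlap.

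The levels of the members across the 8 arrays fell into 2 patterns. Pearson's r of the log2 levels was 0.94 between miR-1 and miR-133a, 0.94 between miR-1 and miR-133b and 0.90 between miR-133a and miR-133b. miR-206 ran the other way, with r of -0.81 to miR-1, -0.86 to miR-133a and -0.66 to miR-133b. These are descriptions over 8 arrays that share the scaling, hold near-identical pairs and, for miR-206, include 2 values at the floor.

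Among the 67 other miRNAs detected on all 8 arrays, the 3 most like miR-1 were miR-30a, miR-30e and miR-30c, with r of 0.985, 0.963 and 0.912. The same 3 came first for miR-133a (0.965 for miR-30e, 0.958 for miR-30a and 0.956 for miR-30c) and for miR-133b (0.919 for miR-30a, 0.867 for miR-30e and 0.785 for miR-30c). The 3 most like miR-206 were let-7b (0.940), miR-466b (0.909) and miR-32* (0.869). The points are the same 8 arrays, with the same shared scaling and near-identical pairs.

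Of 12 listed other muscle miRNAs, 9 were on the array and 3 were tested. The 3 were miR-133a*, the passenger strand of the miR-133a hairpin, and the myosin-gene miRNAs miR-208 and miR-499. miR-133a* read -3.61, -2.34, -2.54 and -2.38 on P0 replicates 1 to 4 and -3.85, -4.02, -2.40 and -2.19 on P10 replicates 1 to 4, so P10 replicates 1 and 2 were again the lowest arrays, and it was not detected on P0 replicate 1. Its log2 difference of -0.40 ± 0.50 (SE; limma and Benjamini-Hochberg adjusted p = 0.617; n = 4 per age) had the sign of miR-133a's own.

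The passenger strands of the other members were not seen. miR-1* and miR-206* were detected on 0 of 8 arrays, and so was miR-133b*, which was added to the list after its values were seen. miR-208 was higher at P10 in the limma fit (1.14 ± 0.25, SE, n = 4 per age, adjusted p = 0.0285), from the floor on each of the 4 P0 arrays, so the size of that difference is set by the floor. Detected on 1 P0 array and 4 P10 arrays, it met the filter through P10 alone, and its P0 values have no spread. That p is therefore not read as support for a rise. miR-208 did not pass with the P10 pairs averaged (limma adjusted p = 0.152) or without P0 replicate 1 (limma adjusted p = 0.0532). miR-499 stood at -0.75 ± 0.39 (adjusted p = 0.236, limma). Of the rest, miR-208* was detected on 3 P0 and 2 P10 arrays and miR-208b-3p on 2 of each, while miR-499* and miR-208b-5p were detected on 0 arrays.

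Fibroblast markers, like the endothelial list given below, were highest on the arrays where miR-1, miR-133a and miR-133b were lowest. The 4 fibroblast markers (miR-199a-3p, miR-199a-5p, miR-214 and miR-21, all 4 tested) had a summed scaled signal of 4.998 to 8.48 on the P0 arrays, 32.8 and 32.9 on P10 replicates 1 and 2, and 5.97 and 5.98 on P10 replicates 3 and 4. On P10 replicates 1 and 2, miR-1 and miR-133a were thus at their lowest and miR-206 at its highest beside the highest fibroblast signal. The sum is weighted towards the bright miR-21, whose level was 2.04 to 2.76 at P0 and 2.21 on P10 replicates 3 and 4. The levels of miR-199a-3p, miR-199a-5p and miR-214 were higher on every P10 array than on any P0 array, although P0 replicate 1 did not detect them. On P10 replicates 3 and 4, miR-199a-3p stood at -2.78 and -2.97, against at most -3.44 at P0. Of the 4 fibroblast markers, 0 passed the limma test between the ages. Their median difference was 2.20, against 0.03 over all tested miRNAs.

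Each of the other marker lists was read the same way, and they too split between the P10 pairs. On P10 replicates 1 and 2 the summed endothelial signal was 0.303 and 0.277, against 0.198 and 0.185 on P10 replicates 3 and 4. The leukocyte sums were 0.294 and 0.291, against 0.092 and 0.0772. Smooth muscle went the other way, with its lowest sums on P10 replicates 1 and 2 (1.08 and 1.01), and the erythroid sums were 0 there. Of the 2 endothelial markers miR-126 rose (2.17 ± 0.43, SE, n = 4 per age, adjusted p = 0.0216, limma) and miR-126* was detected on 0 arrays, and the list's summed signal was 0 to 0.0748 at P0 and 0.185 to 0.303 at P10. On the dim P0 replicate 1 miR-126 was not detected and lay at the floor, which sets the size of its difference in part. Without that array the miR-126 difference was 1.54. Both smooth muscle markers were tested, and miR-143 fell by 0.92 ± 0.23 (adjusted p = 0.0434, limma), with a summed signal of 1.57 to 2.64 at P0 and 1.01 to 1.42 at P10. The leukocyte list had 2 of 5 tested, of which miR-146a was higher at P10 (1.85 ± 0.48, adjusted p = 0.0434, limma), from the floor on all 4 P0 arrays, which sets the size of its difference. Detected on 1 P0 array and 4 P10 arrays, miR-146a met the filter through P10 alone, with no spread at P0, so that p is not read as support for a rise. The list's summed signal was 0.384 on the dim P0 replicate 1, where miR-223 alone of the list was detected. It was 0.0467 to 0.0658 on the other P0 arrays and 0.0772 to 0.294 at P10. With the P10 pairs averaged, the adjusted p was 0.152 for miR-126 and miR-146a and 0.244 for miR-143 (limma), so none of the 3 passed. Without P0 replicate 1 all 3 did, in a fit that called 25 of 168 tested miRNAs higher and 46 lower. The erythroid list had 0 of 2 tested and a summed signal of at most 0.0448. The part of other cells in the members' values was not tested.

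**Figure D4:**
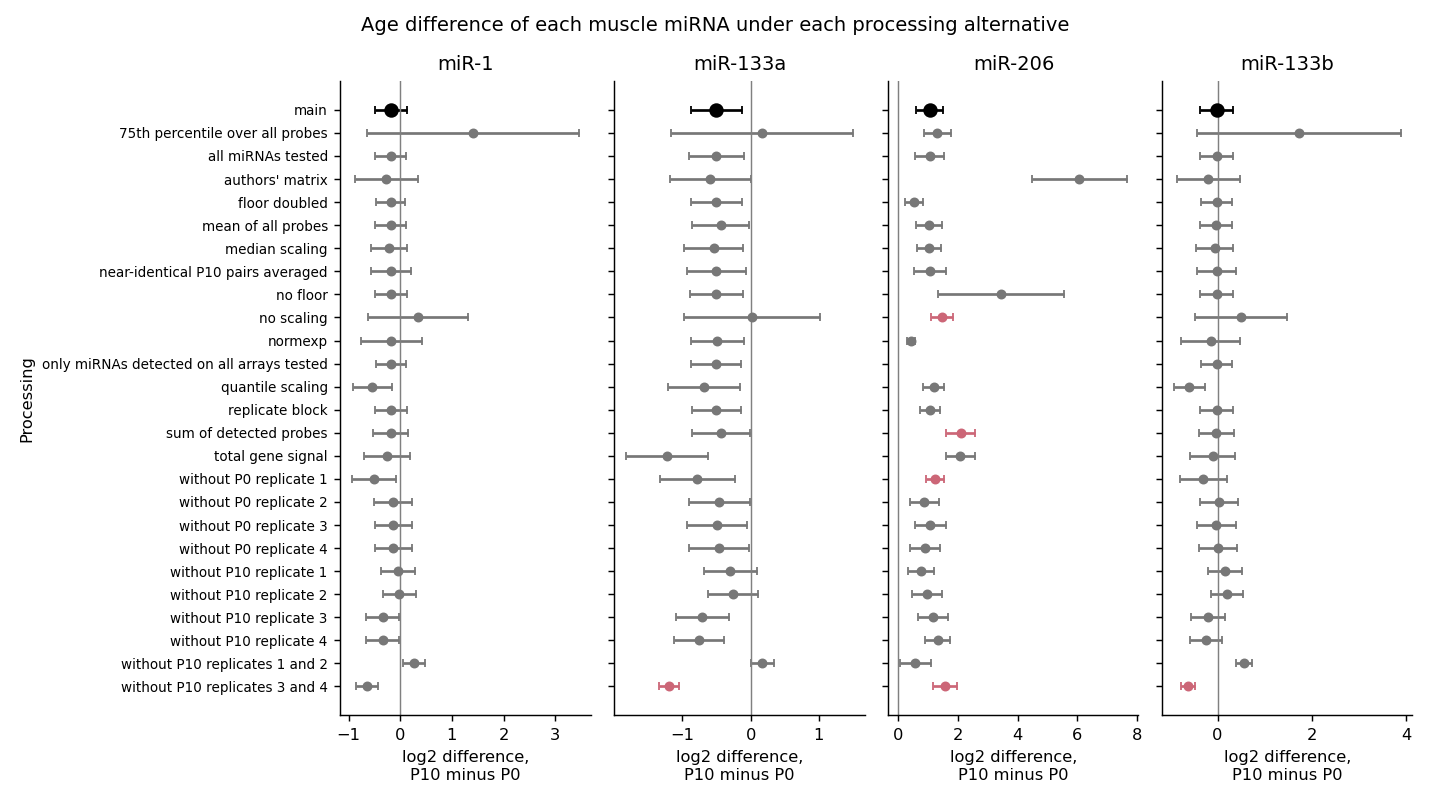
Log2 difference of each muscle miRNA between the ages, P10 minus P0 (x axis, bars are SE), under the main processing (black) and each alternative (grey, or red where the adjusted p from limma was under 0.05). The differences of miR-1, miR-133a and miR-133b fall on both sides of 0, while those of miR-206 run from 0.42 to 6.07.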

How the data were processed

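Cardiomyocyte RNA was measured on 8 one-colour Agilent miRNA arrays, 4 per age, grouped by the sample labels. Per the file headers, the deposited intensity values came from Agilent Feature Extraction 10.7.1.1 and are spot brightness minus a spatially detrended background, not scaled between arrays. The deposited spot table held the same intensities for 640 member spots within 0.457%, so it is linear and uncentred. The authors' deposited log2 matrix was an alternative; the sources used here do not give its normalization. Spots with an outlier mark (23 of 640 member spots) were left out, and 0 miRNA spots were saturated. All arrays share 1 slide, so no slide block was fitted.

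A miRNA was tested when detected on all 4 arrays of an age (158), on its brightest probe, with lmFit and eBayes of limma 3.58.1 (R 4.3.3), checked on simulated data. Array number limits precision. Pair ratios were tested with scipy 1.17.1. Alternatives covered scaling, floor, normexp (offset 50), filter, probe summary and left-out arrays. Named miRNAs are the members, the muscle list, tested cell markers and the 3 miRNAs most like each member. Members, lists and several alternatives were chosen with earlier results of these data known.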

Additional observations from a re-analysis of the deposited data

Results flagged for a closer look

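Of 30 sets of 4 arrays of 1 age examined for a sample far from the others (Dixon's ratio above its critical value), 3 held one. Chance flags about 1 in 20 independent sets, but these sets are not independent, so the number is not read against that share. The log2 level of miR-1 on P0 replicate 1 was 2.13, against 2.71 to 2.74 on the other P0 arrays. Read on the same array, the miR-1 share of detected signal was 5.59%, against 7.18% to 7.35%. P0 replicate 1 is the dim array. The share of miR-206 on P0 replicate 3 was 0.0387%, against 0 on the other P0 arrays, where its undetected probes were set to 0, so any detected value there stands apart by construction.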

How the results depend on the processing

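The sign of the difference turned for miR-1 to 1.41, for miR-133a to 0.17 and for miR-133b to 1.73 when scaling used all probes, to 0.34, 0.023 and 0.50 with no scaling, and to 0.27, 0.17 and 0.57 without P10 replicates 1 and 2. Leaving out 1 array gave -0.51 to -0.02 for miR-1, -0.78 to -0.26 for miR-133a, -0.30 to 0.20 for miR-133b and 0.77 to 1.32 for miR-206; that of miR-133b was positive without P0 replicate 2 (0.03), P0 replicate 4 (0.01), P10 replicate 1 (0.15) or P10 replicate 2 (0.20). A call was gained by miR-133a (-1.19), miR-133b (-0.62) and miR-206 (1.57) without P10 replicates 3 and 4, and by miR-206 with no scaling (1.47), with probes summed (2.09) and without P0 replicate 1 (1.23). Without P10 replicates 3 and 4, 50 and 26 of 167 tested miRNAs were called higher and lower. Without P0 replicate 1 they were 25 and 46 of 168. The cause of the gained calls was not tested. With only miRNAs detected on all arrays, miR-206 is not in the test. The 6 pair ratios kept their direction in every alternative run for them, and 0 passed after adjustment; the planned slide block was not run, since all arrays share 1 slide.

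The share of miR-133a differed by -0.47 points between the ages with the files' total signal per miRNA, against -0.12. With that signal its P0 share ran from 0.396% to 1.82% (SD 0.701), a spread wider than the difference. The counts of all tested miRNAs called higher and lower, 7 and 7, became 0 and 0 with scaling over all probes, with the total signal per miRNA and with P10 pairs averaged, 1 and 3 with all 677 tested, 1 and 0 in the authors' deposited matrix, 5 and 15 with a doubled floor, 4 and 4 with probes averaged, 1 and 4 with no floor, 11 and 0 with no scaling, 2 and 10 with only miRNAs detected on all arrays, 16 and 2 with probes summed, and 50 and 26 without P10 replicates 3 and 4. Leaving out 1 array gave 2 to 25 higher and 2 to 46 lower. At an unadjusted p under 0.05, the fits with 0 calls had 16, 32 and 26. With the replicate number as a block the counts were 3 and 1, and the members' differences stood at -0.18, -0.50, -0.02 and 1.05 with none called. Same-numbered arrays deviated together with r of -0.15 to 0.16, and 4 of 8 correlated best with their own number. With so few arrays this does not decide whether the numbers pair them. Signals near the detection limit bound what can be said of miR-206 at P0.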
